A study of Drosophila melanogaster with 46 samples.

Results

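The 143 adult Pita peaks that lie on an adult Su(Hw) peak were compared with the remaining peaks of both proteins in wild-type Drosophila melanogaster. A Pita peak and a Su(Hw) peak were called shared when their intervals on chromosome 2L, 2R, 3L, 3R, 4, X or Y had at least 1 bp in common. This gave 143 of 1498 Pita peaks and 141 of 3115 Su(Hw) peaks, because 2 Su(Hw) peaks each carried 2 Pita peaks. The study profiled C2H2 zinc-finger proteins and their partner CP190 by chromatin immunoprecipitation and sequencing (ChIP-seq) in 46 samples of 15 groups. Both adult groups held 2 samples each from whole flies labelled dCTCFwt, in the y1w1118 background, and no other treatment was named. Lists of adult CTCF, larval Pita and larval Su(Hw), each from a group of 2 samples labelled wt, were used for comparison. A larval CP190 list that names no genotype was used too. Of the 18 larval CP190 samples 14 are mutant, with CTCFdeltaCP alone or together with SuHwdelta114, PitadeltaCP1 or both. Pita was precipitated with a rabbit antibody on Protein A and Su(Hw) with a rat antibody on Protein G. Age and sex of the flies were not given, and the chromatin protocol in the labels describes third-instar larvae. Whole flies mix all tissues, so a peak present in every cell at a low level and a peak present in few cells cannot be told apart.

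Both proteins bind DNA through arrays of C2H2 zinc fingers and are classed as architectural or insulator proteins. Su(Hw) is best known for the insulator of the gypsy retrotransposon and for repressing neuronal genes in other tissues. Pita is known for boundaries of the bithorax complex and for sites near gene starts. CP190 does not by itself read a long DNA sequence, and it is brought to chromatin by proteins of this kind.

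Each adult list was a set of peaks called by the authors from 2 inputs and kept for reproducibility, with a global irreproducible discovery rate (IDR) of at most 0.00996 for Pita and 0.0499 for Su(Hw). The fold enrichment of a peak is the authors' own value over background, with a single value per peak and none per input. It had a median of 7.12 over all Pita peaks and 9.38 over all Su(Hw) peaks. For a comparison within a list it is given as a percentile, the share of peaks of that list at or below it. Pita gave near equal −log10 p in both inputs, with a median second-to-first ratio of 1.00, whereas the ratio for Su(Hw) was 2.12. Summits of the inputs lay a median of 6 bp apart for Pita and 10 bp for Su(Hw). Read depth was unknown. Intervals treat peaks as independent and describe counting error over peaks, not variation between flies.

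Pita and Su(Hw) occupied mostly separate places in adults, but they met more often than their lengths and numbers alone give. Shared peaks were 9.55% of Pita peaks (95% interval 8.11% to 11.1%) and 4.53% of Su(Hw) peaks (3.82% to 5.32%). These are the background shares for the counts below. When each Pita peak was placed in turn at every position of its chromosome, a mean of 48.4 Pita peaks touched a Su(Hw) peak. The observed count was 2.96 times that mean (2.51 to 3.45). With relocation only to places of the same class, near a gene end or not, the ratio was 2.75. The ratio was above 1 on each of the large arms. It was lowest on 2L, where 25 of 314 Pita peaks were shared (ratio 2.28), and highest on 3L, where 38 of 300 were shared (ratio 4.25). It was 2.498 on 3R, 2.84 on 2R and 3.08 on X. Chromosome 4 held 2 shared peaks among 11 Pita and 7 Su(Hw) peaks.

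The excess lay at short range. Of all Pita summits 35 had a Su(Hw) summit within 25 bp, against a relocation mean of 1.78, a ratio of 19.6. For 26 to 50 bp the ratio was 16.01, for 51 to 100 bp 8.00 and for 101 to 200 bp 2.29. Beyond that the counts were near or under the relocation mean, with ratios of 1.15 at 201 to 500 bp, 0.675 at 501 to 1000 bp and 1.01 at 5001 to 10000 bp. Pita summits were thus over-represented within 200 bp of a Su(Hw) summit and not in the wider neighbourhood.

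**Figure D1:**
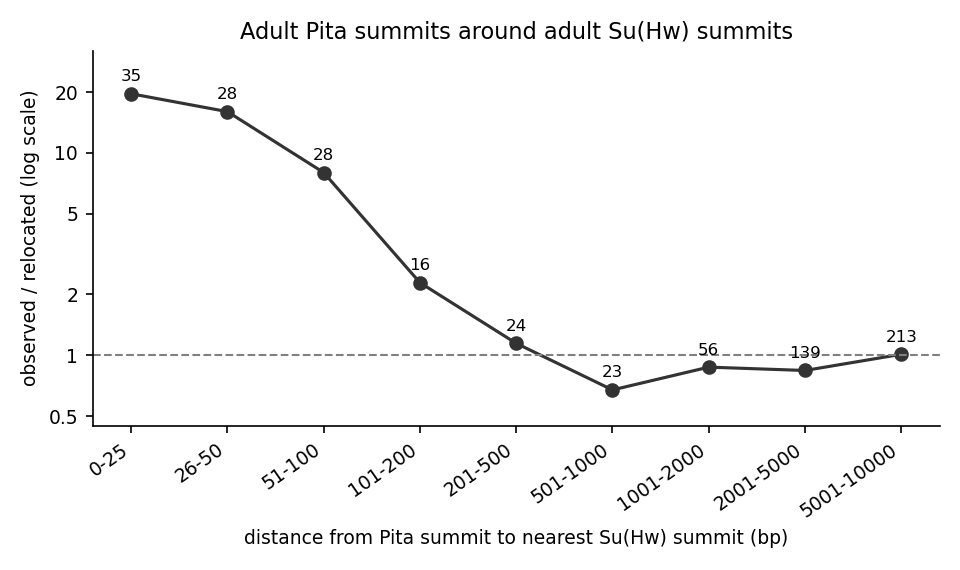
Ratio of observed Pita summits to the relocation mean (log scale), by distance to the nearest Su(Hw) summit in bp; the number above each point is the observed count. The ratio is 19.6 in the first window and 1.15 at 201 to 500 bp, and the dashed line marks 1.

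Within the 143 pairs the summits were a median of 62 bp apart (quartiles 26.5 and 201.5 bp, 95% interval of the median 48 to 78 bp). They lay within 10 bp in 13 pairs, within 50 bp in 63, within 100 bp in 91 and within 500 bp in 129, and the widest pair was 1636 bp apart. The spread between inputs at the same peaks was smaller, with a median of 8 bp for Pita and 7 bp for Su(Hw). In 119 of 143 pairs (83.2%) the Pita to Su(Hw) distance was larger than both input differences added together. Most pairs were thus close, with summits further apart than those of the inputs within a list. How the inputs were formed is not stated, and their spread does not measure the error between precipitations with different antibodies. Whether the bound positions differ was not tested. In the second inputs the median was 60 bp.

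At the edge of the rule the shortest overlaps were 43 bp at CG8128 on X, 66 bp between wit and Faa on 3L and 125 bp at cpo on 3R; wit encodes a type II receptor of the BMP pathway. The smallest gaps among peaks that did not overlap were 4 bp at Eip74EF, an ecdysone-induced Ets factor gene, 8 bp at C3G, which encodes an exchange factor for Rap1, and 57 bp at CG42694. The Eip74EF peaks had folds of 20.5 for Pita and 3.94 for Su(Hw), with summits 1343 bp apart. At C3G the folds were 4.79 and 4.22, with summits 381 bp apart.

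Shared sites were ordinary Pita sites and strong Su(Hw) sites. The median Pita fold was 6.46 at shared peaks and 7.25 at unshared peaks, at percentiles of 47.2 and 50.4. The median Su(Hw) fold was 18.5 at shared peaks against 9.09 at unshared peaks, at percentiles of 82.1 and 48.6. Shared Su(Hw) peaks were also wider, with a median of 820 bp against 650 bp, while Pita widths were 557 and 553 bp. Width alone raises the chance of touching, so the shares are given beside the relocation mean for peaks of the same width.

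Ordered by rising fold, the quartiles of the Su(Hw) list had 9 of 779, 17 of 779, 35 of 779 and 80 of 778 peaks shared, or 1.16%, 2.18%, 4.49% and 10.3%. The ratios to relocation were 0.887, 1.501, 2.81 and 5.66. The weakest quartile thus met Pita about as often as relocated peaks, and its interval of 0.530% to 2.18% includes the relocation share of 1.30%. In the strongest decile 47 of 311 peaks were shared, 7.88 times the relocation mean. The Pita list had no such gradient, with 9.87%, 10.7%, 8.53% and 9.09% shared from its weakest to its strongest quartile and ratios of 3.84, 3.76, 2.46 and 2.25.

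**Figure D2:**
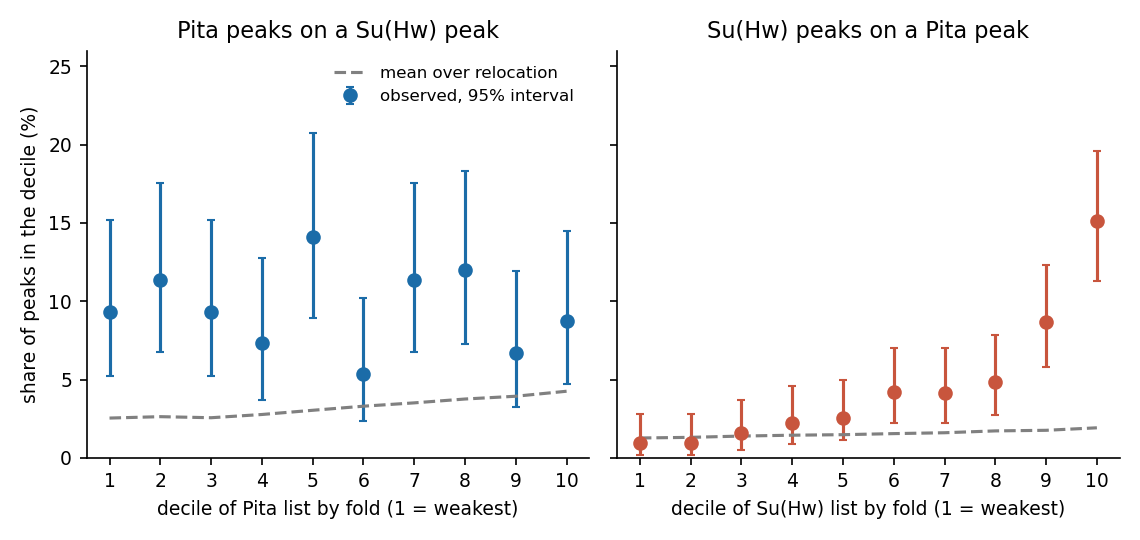
Share of Pita peaks on a Su(Hw) peak (left) and of Su(Hw) peaks on a Pita peak (right), in percent with exact 95% intervals, by decile of each list ranked by fold; the dashed line is the relocation mean. The Su(Hw) share reaches 15.1% in the strongest decile from 0.962% in the weakest, and the Pita shares show no steady order.

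The strength of one protein did not order the strength of the other at shared sites. The Spearman correlation of the folds was −0.07 over the 143 pairs, −0.11 over the 91 pairs within 100 bp and 0.15 over the 38 pairs from 101 to 500 bp. It was −0.51 over the 14 pairs beyond 500 bp, a small set. These are descriptions over sites of the same libraries, with no test. Su(Hw) stood at the higher percentile in 110 of 143 pairs, and it was over 50 percentile points above Pita in 39 pairs, against 7 the other way. The commonest combination was Pita in its weakest quartile with Su(Hw) in its strongest, at 25 pairs, while 18 pairs had both in the strongest quartile and 3 had both in the weakest.

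**Figure D3:**
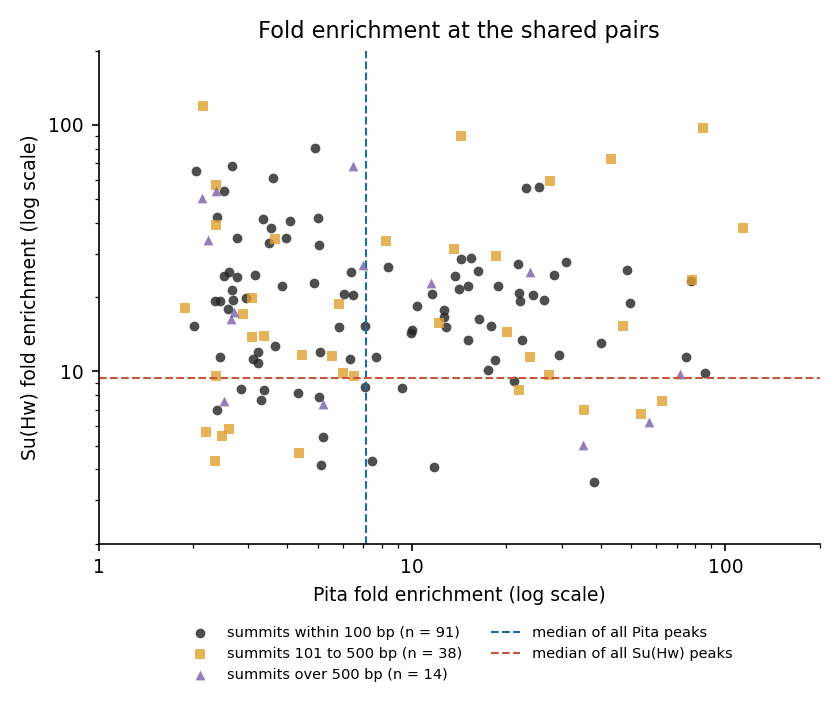
Su(Hw) fold against Pita fold at the 143 shared pairs (both axes log scale), with symbols for summit distance and dashed lines at the median fold of each whole list. Points lie mostly above the Su(Hw) median of 9.38 and on both sides of the Pita median of 7.12.

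The pair at CG13707 on 3L was the strongest by the lower of its percentiles. The Pita peak (chr3L:4839899-4840980, dm6) had a fold of 84.9, with −log10 p of 4427 and 4372 in the inputs. The Su(Hw) peak (chr3L:4840088-4841388) had a fold of 97.4, with −log10 p of 2872 and 6029. Both stood above the 98th percentile of their lists, yet their summits were 444 bp apart. The Pita summit was 220 bp from a gene end, and larval CP190 had a peak of 23.4-fold there.

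The pair in klar, a gene for positioning nuclei and lipid droplets, had a Pita fold of 114 and a Su(Hw) fold of 38.3, with summits 297 bp apart. Its Pita peak (chr3L:505377-506623) lay inside the gene, 34426 bp from a gene end, and carried no larval CP190 peak. On chromosome 4 a pair between Cals, the calsyntenin gene, and sv, the Pax2 gene shaven, had folds of 48.6 for Pita and 25.8 for Su(Hw), 46 bp apart. A site deep in Wdr62, which encodes a centrosome and spindle protein, had folds of 78.2 and 23.5, 107 bp apart. These sites show that strong pairs occurred both at gene ends and far inside genes.

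At fzr, which encodes an activator of the anaphase-promoting complex, the folds were 77.7 for Pita and 23.2 for Su(Hw). The summits were 49 bp apart, 109 and 60 bp from a gene end, with no larval CP190 peak. At CG3626 the folds were 49.4 and 19.02 with summits 14 bp apart. Outside Act88F, the actin gene of the indirect flight muscle, the folds were 28.4 and 24.6 and the summits were 1 bp apart, 1738 and 1739 bp from the gene. Larval CP190 reached 62.9-fold and adult CTCF 98.4-fold there. The closest strong pair was therefore at a site of all the profiled proteins.

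Inside nuf, which encodes a partner of Rab11, the folds were 31.0 for Pita and 27.7 for Su(Hw), 34 bp apart. Another of the strongest 12 pairs was inside chas (26.4 and 19.5). Pairs outside genes were nearest to lncRNA:CR45750 (43.1 and 72.8) and CG43774 (25.4 and 55.9). Their Pita summits were 1950 bp and 10869 bp from these genes. Of these 12 pairs 8 had a larval CP190 peak, all 12 were pairs in larvae too, and 7 had summits within 100 bp. Among all 143 pairs these shares were 83.2%, 64.3% and 63.6%. By position 4 Pita summits were near a gene end, 5 inside a gene and 3 outside genes, against 44.8%, 29.4% and 25.9% of all 143.

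At some pairs a strong Su(Hw) peak carried a weak Pita peak. At Or43a, an odorant receptor gene, Su(Hw) had a fold of 65.2 (−log10 p 1547 and 3562) and Pita a fold of 2.05 (7.88 and 9.71), with summits 64 bp apart near the gene end. Near lncRNA:CR43437 on chromosome 4 the folds were 119 for Su(Hw) and 2.15 for Pita, with summits 221 bp apart. Near lncRNA:CR46454 they were 50.7 and 2.14, but the summits were 1102 bp apart. Outside genes, 1420 bp from Fatp3, named as a fatty acid transport protein gene, they were 34.1 and 2.24, with summits 1204 bp apart. At asRNA:CR45738 they were 56.8 and 2.37, with summits 159 bp apart. All 5 Pita peaks were below the 10th percentile, and 4 of the 5 had no larval Pita peak, against 46 of all 143 pairs.

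The opposite case was rarer. At Sytbeta, a synaptotagmin family gene, Pita had a fold of 38.1 (−log10 p 1181 and 1348) and Su(Hw) 3.54 (14.4 and 43.1), with summits 54 bp apart. Between Pits and LIMK1, a kinase gene, the folds were 35.2 for Pita and 5.03 for Su(Hw), with summits 1139 bp apart. At cpo, an RNA-binding protein gene known for its part in reproductive dormancy, they were 57.0 and 6.20, 748 bp apart. At Nost they were 53.8 and 6.73, 112 bp apart. At axed, a gene needed for degeneration of injured axons, they were 62.7 and 7.60, 474 bp apart. All 5 carried a larval CP190 peak, as did 83.2% of all shared Pita peaks.

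The strongest peak of each list had no partner. Unshared Pita peaks reached 118-fold outside genes, 1323 bp from CG13323, and at brn, a glycosyltransferase gene. They were followed by UQCR-Q, a respiratory complex III gene (114-fold), CG7655 (110-fold) and alph, a phosphatase gene (104-fold). Of these 5 summits, all but that near CG13323 had a gene end within 500 bp, against 63.5% of all unshared Pita summits. Unshared Su(Hw) peaks reached 135-fold inside CCKLR-17D3, a receptor gene for cholecystokinin-like peptides. Next came CG9896 (107-fold) and CG44837 (99.4-fold). Peaks outside genes followed, 3163 bp from BaraA2, a gene of antifungal peptides (95.6-fold), and 1110 bp from lncRNA:CR44688 (95.03-fold). Of these 5, only the summit at CG9896 had a gene end within 500 bp, against 19.6% of all unshared Su(Hw) summits.

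Shared sites had gene ends nearby less often than other Pita sites and more often than other Su(Hw) sites. A gene end, meaning either end of an annotated gene, lay within 500 bp of 64 of 143 shared Pita summits (44.8%), against 861 of 1355 unshared ones (63.5%; odds ratio 0.465, 0.328 to 0.658). For Su(Hw) it was 57 of 141 shared summits (40.4%) against 582 of 2974 unshared (19.6%; odds ratio 2.79, 1.97 to 3.95). Shared Pita summits were more often outside genes, with 37 of 143 (25.9%) against 139 of 1355 (10.3%; odds ratio 3.05, 2.02 to 4.62). For Su(Hw) the shares outside genes were 40 of 141 (28.4%) and 741 of 2974 (24.9%), with an interval of the odds ratio that includes 1 (1.19, 0.820 to 1.74). Shared Su(Hw) summits were less often inside genes, with 44 of 141 (31.2%) against 1651 of 2974 (55.5%; odds ratio 0.363, 0.253 to 0.523). Since members of a pair lie close together, the shared shares of both proteins are near equal by construction.

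The contrast in gene ends was not the same at every strength of Su(Hw). In the weaker 3 quartiles of the Su(Hw) list 5 of 9, 10 of 17 and 19 of 35 shared summits were near a gene end, against 17.01%, 19.03% and 19.09% of unshared summits. In the strongest quartile it was 23 of 80 (28.8%) against 23.5%. For Pita the shared share was the lower in each quartile, from 40.5% against 50.6% in the weakest to 52.9% against 75.0% in the strongest. With each list limited to its upper part by −log10 q, cut at the list's median, the Pita odds ratio was 0.301.

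**Figure D4:**
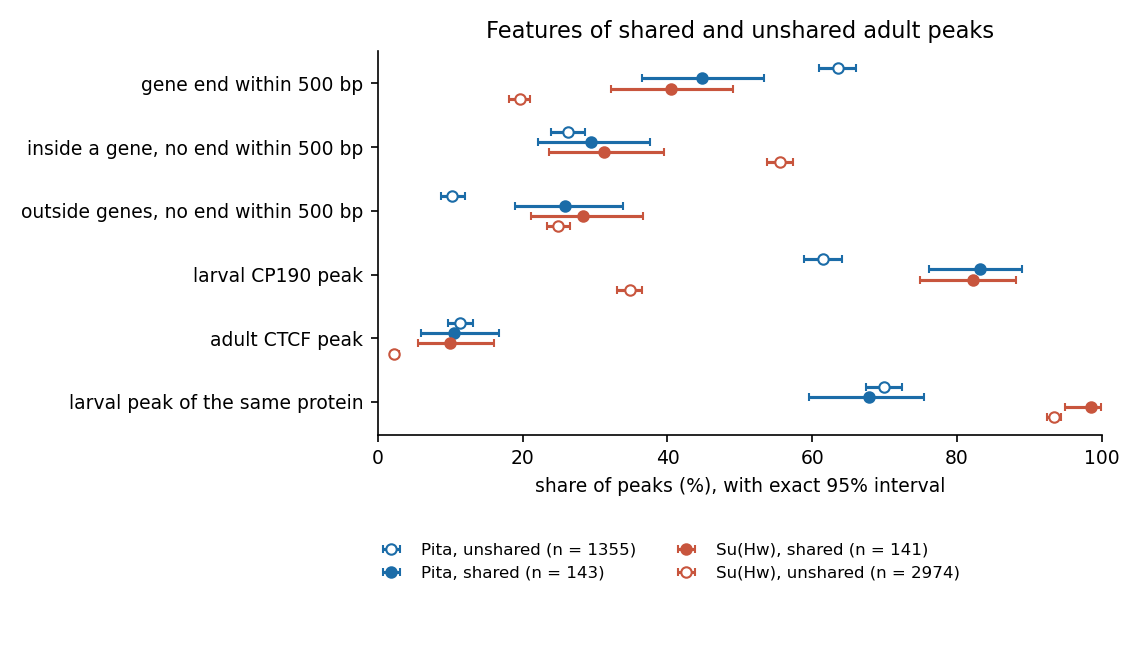
Share of peaks with each feature in percent, with exact 95% intervals, for shared (filled) and unshared (open) peaks of Pita (blue) and Su(Hw) (red). A gene end is near 44.8% of shared and 63.5% of unshared Pita summits, and near 40.4% of shared and 19.6% of unshared Su(Hw) summits.

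CP190 was present in larvae at most shared sites. The deposited CP190 list covers larvae and names no genotype, so its stage differs from that of the adult lists. Of the 18 CP190 samples in the labels 4 are dCTCFwt and 14 are mutant, all in y1w1118. The mutants are CTCFdeltaCP alone (4 samples), with SuHwdelta114 (4), with PitadeltaCP1 (4) and with both (2), so the labels name changes in CTCF, Su(Hw) and Pita themselves. The wild-type CP190 samples are labelled rabbit and the mutant ones rat for the antibody. A CP190 peak overlapped 119 of 143 shared Pita peaks (83.2%) and 834 of 1355 unshared ones (61.5%; odds ratio 3.10, 1.97 to 4.87). It overlapped 116 of 141 shared Su(Hw) peaks (82.3%) and 1034 of 2974 unshared ones (34.8%; odds ratio 8.71, 5.61 to 13.5). CP190 peaks touched by both proteins had a median fold of 15.4 (125 peaks), against 11.8 with Pita only (817), 7.72 with Su(Hw) only (1029) and 3.71 with neither (2249). In the first of these groups the Pita and Su(Hw) peaks need not overlap each other, and the width of the CP190 peaks was not taken into account.

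The CP190 difference was largest for weak peaks. In the weakest Pita quartile 27 of 37 shared and 99 of 338 unshared peaks carried CP190 (73.0% and 29.3%). In the second quartile these were 36 of 40 and 160 of 334 (47.9%), and in the third 30 of 32 (93.8%) and 278 of 343 (81.0%). In the strongest quartile 26 of 34 shared peaks (76.5%) and 297 of 340 unshared peaks (87.4%) carried it, the opposite order. With each list cut at its median −log10 q, the Pita odds ratio was 0.930, with an interval of 0.442 to 1.958 that includes 1. For Su(Hw) the share was higher at shared peaks in every quartile, from 8 of 9 against 14.8% in the weakest to 64 of 80 (80.0%) against 65.6% in the strongest. Pooled over quartiles the Su(Hw) odds ratio was 4.52, and it was 4.45 with the cut at the median −log10 q and 4.11 with the Su(Hw) list shortened to the length of the Pita list.

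**Figure D5:**
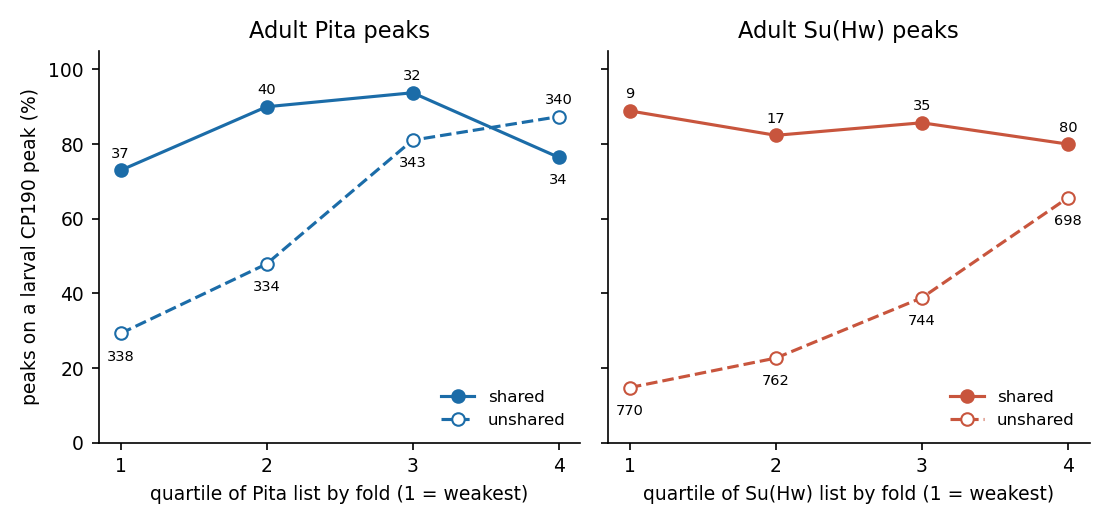
Share of adult Pita (left) and Su(Hw) (right) peaks that overlap a larval CP190 peak, in percent, by quartile of each list ranked by fold, for shared (solid) and unshared (dashed) peaks, with the number of peaks beside each point. Shared Su(Hw) peaks are at 80.0% or more in each quartile, and the Pita lines cross in the strongest quartile.

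The 24 shared Pita peaks without CP190 were not a uniform group. Their median Pita fold was 3.61 (quartiles 2.38 and 25.6), against 6.53 (3.26 and 18.1) at the 119 with CP190, and their median Su(Hw) fold was 26.3 against 17.1. They ranged from klar and fzr, strong for both proteins, to Or43a, where Pita was near the bottom of its list.

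Adult CTCF, a further zinc-finger insulator protein, overlapped 15 of 143 shared Pita peaks (10.5%) and 154 of 1355 unshared ones (11.4%; odds ratio 0.914, 0.522 to 1.60). It overlapped 14 of 141 shared Su(Hw) peaks (9.93%) against 67 of 2974 unshared ones (2.25%; odds ratio 4.78, 2.62 to 8.74). The odds ratio was 2.80 (1.32 to 5.90) with the Su(Hw) list shortened to the length of the Pita list. A difference between shared and other Pita peaks was thus not detectable at this number of sites, while among Su(Hw) peaks CTCF was more frequent at the shared ones. CTCF fold was highest inside Antp, at 167, with Pita at 23.8 and Su(Hw) at 25.2. At CG43693 CTCF reached 158-fold beside a Pita fold of 3.49 and a Su(Hw) fold of 33.0. At CG9380 these were 141, 85.8 and 9.84. Sites at bin, a FoxF gene of the visceral mesoderm, and at sim, the midline regulator single-minded, were also on this list of 15, with CTCF folds of 62.0 and 45.5.

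Most adult pairs were also present in larvae. A larval Su(Hw) peak overlapped the Su(Hw) member of 141 of 143 pairs, and a larval Pita peak overlapped the Pita member of 97. Per peak, a larval peak of the same protein was found at 67.8% of shared and 948 of 1355 unshared Pita peaks (69.96%; odds ratio 0.905, 0.626 to 1.31). For Su(Hw) it was found at 139 of 141 shared (98.6%) and 2779 of 2974 unshared peaks (93.4%; odds ratio 4.88, 1.20 to 19.8). A missing larval Pita peak was thus about as frequent in the rest of the Pita list as at the pairs. Larval peaks of both proteins that overlapped each other were present at 92 pairs (64.3%, 55.9% to 72.2%). At 45 pairs only the Su(Hw) peak was in the larval list, at 4 both peaks were present without touching, at 1 only Pita and at 1 neither. Pita peaks of pairs with no larval Pita peak were weak, with a median fold of 2.77 (n = 46) against 13.6 (n = 97). Su(Hw) stood at similar percentiles in both sets, 85.1 and 77.5. With both adult lists cut at their median −log10 q, the share of pairs again found in larvae was 92.6%. The larval Pita list was kept at an IDR of up to 0.05 and the adult one at up to 0.01, and for Su(Hw) it was the reverse, so the lists differ in threshold as well as in stage.

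At the 92 pairs found in both stages adult and larval folds were ranked alike for each protein, with a Spearman correlation of 0.88 for Pita and 0.91 for Su(Hw). Across the proteins the larval folds gave 0.05. These correlations are descriptions over the same sites. Of 137 larval Pita peaks on a larval Su(Hw) peak, 92 were such a pair in adults.

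Shared pairs lay at no more than 2 genes of any list examined, too few to rank the lists by them. A gene was counted for a protein when a summit was within its span or within 500 bp of an end. By that rule 11.9% of the 13946 protein-coding genes had Pita, 11.0% had Su(Hw) and 133 (0.954%) had a shared pair. Both proteins were found anywhere at 354 genes, so at most of these they were at separate positions. Long genes collect more summits, and the median length was 2161 bp over all protein-coding genes.

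Among 16 insulator protein genes none had a shared pair, and the genes of both proteins carried their own product. The pita gene had a Pita peak of 45.1-fold (chr2R:23553915-23554784, −log10 p 2681 and 2639) and the su(Hw) gene a Su(Hw) peak of 67.3-fold (chr3R:14307505-14308665, 1677 and 3716). Weaker Pita peaks were at BEAF-32 (4.74-fold), Trl (2.23-fold) and Chro (2.88-fold), which encode other insulator or chromatin proteins. In all, 4 of these genes had Pita (25%, against 11.9% of all protein-coding genes) and 1 had Su(Hw) (6.25%, against 11.0%). A list of 16 genes is too short to show an absence of pairs.

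In the bithorax complex, the homeotic genes of the posterior body, Pita was at Abd-B (36.1-fold) and Su(Hw) at Ubx (18.98-fold). None of the 5 genes had a shared pair by the rule for genes. The strong pair near lncRNA:CR45750 (Pita chr3R:16798061-16799007) nevertheless lay between the Ubx and Abd-B peaks. Its folds were 43.1 for Pita and 72.8 for Su(Hw), so the complex was not without a shared site. In the Antennapedia complex, the homeotic genes of the head and anterior thorax, 3 of 9 genes had Pita and 1 had Su(Hw). The median length of these 9 genes was 10593 bp, against 2161 bp for all protein-coding genes. A shared pair was at 1 of them (11.1%, against 0.954% of all protein-coding genes), too few to show an excess. It lay inside Antp (Pita chr3R:6912258-6913256, Su(Hw) chr3R:6911790-6912575), with summits 522 bp apart. Its −log10 p was 816 and 854 for Pita and 429 and 857 for Su(Hw). It had no larval CP190 peak. Pita alone was at pb (86.5-fold) and bcd (10.7-fold).

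Among 38 neuronal and synaptic genes 25 had Su(Hw) (65.8%), 9 had Pita (23.7%) and 7 had both, and 2 (5.26%, against 0.954% of all protein-coding genes) had a shared pair. Their median length of 30297 bp is far above that of all protein-coding genes. The shared pairs were at Sytbeta, described above, and at nAChRalpha6, a nicotinic acetylcholine receptor subunit gene. The latter held 5 Su(Hw) peaks from 7.67-fold to 21.4-fold and 1 Pita peak of 2.66-fold, which lay 48 bp from the strongest of them by summit. At brp, Ace and Sh, the genes of an active zone protein, acetylcholinesterase and a potassium channel, the peaks of both proteins did not touch. At brp, Pita had 17.8-fold and Su(Hw) 9.17-fold and 16.05-fold.

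Ribosomal protein genes held Pita peaks more often than Su(Hw) peaks. Of 92 cytoplasmic ribosomal protein genes 25 had Pita (27.2%, against 11.9% of all protein-coding genes) and 2 had Su(Hw) (2.17%, against 11.0%). Of 73 mitochondrial ribosomal protein genes 13 had Pita (17.8%) and none had Su(Hw). Of 88 respiratory chain genes 6 had Pita (6.82%) and 3 had Su(Hw) (3.41%), both under the shares of all protein-coding genes. ND-15, a complex I gene, had both, apart from each other. No gene of these 3 lists had a shared pair, against 0.954% of all protein-coding genes. Their median lengths, in the order given, were 1315, 909 and 1097 bp, under the 2161 bp of all protein-coding genes. Short genes collect fewer summits, and the part of length was not tested.

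Chemoreceptor genes were few in both lists, with Su(Hw) at 11 of 186 (5.91%), Pita at 3 (1.61%) and a shared pair at 1 (0.538%), the Or43a pair. Over all protein-coding genes these shares were 11.0%, 11.9% and 0.954%. Polycomb group genes had Pita at 2 of 18 (11.1%), led by Pc itself at 71.9-fold, and Su(Hw) at 1 (5.56%). Pair-rule and segment polarity genes had Pita at 2 (9.52%) and Su(Hw) at 1 (4.76%) of 21. Chorion genes had Su(Hw) at 2 of 9 (22.2%) and no Pita. Of 295 tRNA genes, with a median length of 73 bp, 14 had Pita (4.75%) and 10 had Su(Hw) (3.39%). Some neighbouring tRNA genes shared a single peak, so these counts of genes are not counts of separate sites. None of these last 4 lists had a shared pair. With a pair at 0.954% of all protein-coding genes, lists of 9 to 21 genes are too short to show an absence.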

How the data were processed

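ChIP-seq peaks of adult Pita and Su(Hw) were read from the deposited lists, with larval and adult lists of partner proteins for comparison. Per the submitters' processing notes, MACS2, Bowtie2, bedtools, cutadapt, deepTools and Picard were used with the dm6 genome; versions and settings are not given in the sources used here. Each deposited list has 20 columns per peak: a fold ratio over background, −log10 p and q values, an integer score, the summit, −log10 IDR, and the interval, −log10 p and summit in 2 inputs. The deposited interval, p and summit equal those of the first input in every list. Which samples formed the inputs is not stated, and read depth is unknown, so no depth floor is given.

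Peaks on the 7 named chromosomes were paired at an overlap of 1 bp. Relocation is an exact mean over positions, with chromosome lengths taken as the last gene or peak end. Shares have exact Clopper-Pearson and odds ratios Woolf 95% intervals, and the interval of the relocation ratio is that of the observed share. No p-values were computed. Genes came from the RefSeq table of Release 6 plus ISO1 MT, the same assembly as dm6, matched by symbol and without strand. A peak was at a gene when its summit lay in the gene or within 500 bp of an end. Named sites were the 12 pairs with the highest lower percentile, the 5 most unequal pairs each way, the 5 strongest unshared peaks of each list, the 3 shortest overlaps and gaps, and all pairs at listed genes. The result for 1 of the named pairs is not reported here. The sites of CTCF overlap named beyond these were chosen after their values were seen. The members and lists were chosen with earlier results of these data known. Overlap rule, thresholds, list length, chromosomes, gene distance and peak input were varied. Python 3.11.15, numpy 2.4.6, pandas 2.3.3, scipy 1.17.1, statsmodels 0.14.6 and matplotlib 3.10.9 were used, and scripts were checked on made-up intervals.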

Additional observations from a re-analysis of the deposited data

How the results depend on the processing

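Of 120 alternative values under 18 settings, 100 lay within the 95% interval of the reported value, among them the Su(Hw) odds of CTCF, which moved from 4.78 to 2.80 with the shortened Su(Hw) list and to 3.66 pooled over quartiles of fold. With summits within 200 bp as the rule, the shared share was 7.14% of Pita and 3.43% of Su(Hw) peaks and the relocation ratio 7.63. Where the overlap had to cover 0.5 of the shorter peak the ratio was 4.14. With the Su(Hw) list shortened to the length of the Pita list, shares were 7.54% and 7.48%, the ratio 4.34, the Su(Hw) percentile difference 24.7 in place of 33.6 and the Su(Hw) odds of CP190 4.11. With each list cut at its median −log10 q, shares were 7.21% and 3.47%, the ratio 3.49, the median summit distance 47 bp, the correlation of folds 0.10 in place of −0.07, a change of sign, the Su(Hw) percentile difference 23.7 and the Pita odds of a gene end 0.301. In the same peaks the Pita odds of CP190 changed direction to 0.930, the Su(Hw) odds fell to 4.45 and the share found in larvae was 92.6%. Pooled over quartiles of fold, the Su(Hw) odds of CP190 were 4.52. The causes were not tested. Peak positions of the second input, and a summit inside the CP190 or CTCF peak, were alternatives chosen after seeing the data, and neither moved a result out of its interval. No paired analysis was possible because the deposited lists combine 2 inputs that are not tied to samples, and for the same reason no sample could be left out. Unknown depth limits what an absent peak shows.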
